A study of Mus musculus with 6 samples.

Results

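The 10 genes described here are the chemokines Ccl3, Ccl4, Ccl6 and Ccl9, the cytokines Il1a, Il1b and Tnf, the surface protein Cd83, the NF-kB inhibitor Nfkbia and the inflammasome sensor Nlrp3. They were taken by symbol from the 32285 genes listed in the deposited matrices, and all 10 were found. The data are single-nucleus RNA-seq of cortex from mice of 7.5 months. By the labels every mouse carried 5xFAD, an amyloid model in which neurons express transgenes with familial Alzheimer's disease mutations from the Thy1 promoter. One group carried nothing more, and the other two also carried a variant of the enzyme phospholipase C-γ2: M28L, which in people goes with higher risk of the disease, in 5xFAD-M28L, and P522R, which goes with lower risk, in 5xFAD-P522R. Each group had 2 libraries, called replicates 2 and 3 after their labels, each made from sorted NeuN-negative nuclei of male and female mice loaded together, so neurons were largely removed. Mice without 5xFAD were not analysed here. The labels do not say that the 2 libraries of a group came from separate mice, so the error behind each p-value is that between libraries and may be technical.

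NF-kB dimers are held in the cytoplasm by inhibitors such as IκBα, the product of Nfkbia. Signals from Toll-like, interleukin-1 and TNF receptors, and from phospholipase C-γ2 through protein kinase C in immune cells, lead to loss of the inhibitor, entry of the dimers into the nucleus and transcription of chemokine and cytokine genes together with Nfkbia itself. In the brain the chemokine and cytokine genes are known mainly as products of microglia. Nlrp3 encodes the sensor of a complex that activates caspase-1, which cuts the interleukin-1β precursor into its secreted form.

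The genes lie on 5 mouse chromosomes, and several are neighbours. In GRCm38, the build of the mm10 reference that the submitters' processing notes name, with GENCODE M21 models, the 4 chemokine genes lie on chromosome 11, at 83572919 to 83578636 for Ccl9, 83587882 to 83593087 for Ccl6, 83647844 to 83649355 for Ccl3 and 83662584 to 83664683 for Ccl4. The first 3 of these are on the minus strand and Ccl4 is on the plus strand. Il1a (2:129299610-129309972) and Il1b (2:129364570-129371139) are neighbours on the minus strand of chromosome 2. Antisense or overlapping models lie over Il1a (Gm14023), Il1b (Il1bos) and Ccl6 (E230016K23Rik). Nlrp3 is at 11:59541568-59566956 on the plus strand, Nfkbia at 12:55489410-55492647 on the minus strand, Cd83 at 13:43784775-43803132 on the plus strand and Tnf at 17:35199381-35202007 on the minus strand.

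Promoter windows were read from RefSeq (GRCm38.p6) to show where an NF-kB motif or a TATA box stands next to the start sites of these genes. Entries were found for 8 of the 10 genes, with 9 windows, and the 250 bases before the start were searched on both strands. The consensus NF-kB motif matched 3 of the 9 windows, against 3.90% of 32851 windows of the same length. The 3 matches are shown here 5′ to 3′ on the gene's strand, with the matched bases in capitals; all 3 fit the motif when read on the opposite strand.

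Nfkbia, chr12:55492648-55492701, minus strand, match 29 to 20 bases before the start: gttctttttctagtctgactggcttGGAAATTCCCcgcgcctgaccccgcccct
Ccl9, chr11:83578637-83578696, minus strand, match 35 to 26 bases before the start: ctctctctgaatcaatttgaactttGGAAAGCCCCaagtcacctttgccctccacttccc
Nlrp3, chr11:59541358-59541417, plus strand, match 186 to 177 bases before the start, in 1 of its 2 windows: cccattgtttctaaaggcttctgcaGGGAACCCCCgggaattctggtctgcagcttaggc

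The TATA box, searched as TATAAA on both strands, was found in 4 of the 9 windows, those of 4 genes, against 12.4% of all windows. In the 3 cytokine genes it stood about where a TATA box is known to act, and these 3 are shown with the motif in capitals.

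Il1a, chr2:129309974-129310029, minus strand, match 32 to 27 bases before the start: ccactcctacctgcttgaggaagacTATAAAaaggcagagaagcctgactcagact
Il1b, chr2:129371140-129371195, minus strand, match 31 to 26 bases before the start: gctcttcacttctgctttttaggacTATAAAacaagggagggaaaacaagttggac
Tnf, chr17:35202008-35202061, minus strand, match 29 to 24 bases before the start: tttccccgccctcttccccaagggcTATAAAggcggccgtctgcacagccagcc

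A match is a run of letters and was not tested as a binding site. The windows of Ccl3, Ccl6, Il1a, Il1b and Tnf held no match to the NF-kB letters within these 250 bases.

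The 6 libraries held 9269 to 13783 barcodes each and 53326947 to 72288942 unique molecular identifiers (UMIs, 1 per captured RNA molecule). After filters and removal of called doublets 60085 nuclei were left. Of these 7536 were named microglia-like (851 to 1608 per library) and 356 border macrophage-like (41 to 122 per library) from their marker genes. Of 44 clusters 9 stayed unnamed. The largest unnamed cluster that best matched microglia held 1508 barcodes, 38.9% of them called doublets, and showed all 15 microglia markers. Its leading genes held no listed microglia marker but held Csf3r, which was listed for neutrophils and monocytes and also read in microglia-like nuclei. For this the cluster stayed unnamed, as its doublet share was under the limit of 40%. Its nuclei were left out of the microglia-like nuclei. Pairs of libraries shared 20 to 71 barcodes (0.2% to 0.751%). The names fitted defining markers: P2ry12 was at 762 counts per 1000000 UMIs in microglia-like and 6.36 in oligodendrocyte-like nuclei, while Mrc1 was at 3358 in border macrophage-like and 6.94 in microglia-like nuclei, and the neutrophil gene S100a8 was at 0 in both. The microglia-like nuclei of 5xFAD replicate 2 stood apart: their median depth was 2835 UMIs against 3566 to 3896 in the other libraries, and 68.4% of them fell in the cluster with homeostatic markers, against 28.9% to 43.2% elsewhere. Of its nuclei with Xist and no Y-linked UMI, 373 of 387 were in that cluster. The labels give no other genotype for this library, and whether the label holds for each mouse pooled in it was not tested. The 5xFAD values and the comparison of the sexes rest in part on it. Differences from 5xFAD are given with and without this library for the genes the results turn on.

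Across the cell types, the chemokine, interleukin-1, Cd83 and Nlrp3 transcripts were highest in microglia-like or border macrophage-like nuclei in median level, and Nfkbia was not. Levels are counts of the gene per 1000000 UMIs of all genes (CPM), summed over the nuclei of a type in a library. They are not scaled to transcript length, so they are compared between nuclei and not between genes. In a sum over nuclei, fewer expressing cells and less RNA per cell cannot be told apart. Ccl3 had a UMI in a median of 3.20% of microglia-like nuclei thinned to 2000 UMIs and in 0.0616% of oligodendrocyte-like nuclei, where free RNA can give such counts. The same shares were 5.12% and 0.0962% for Ccl4, and 20.2% and 0.207% for Cd83. Nlrp3 was detected in 12.1% and 0.103%. Cd83, a membrane protein of activated antigen-presenting cells, was also read in endothelial-like nuclei at 10.8 to 29.1 CPM and in oligodendrocyte precursor-like nuclei at 5.42 to 8.69.

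Nfkbia was highest in endothelial-like nuclei, in every library. Its level there was 247 and 360 CPM in the 5xFAD libraries (replicates 2 and 3), 347 and 453 in 5xFAD-M28L and 308 and 335 in 5xFAD-P522R, and a median of 46.9% of thinned nuclei had a UMI. The range was 15.9 to 20.3 in microglia-like nuclei, 13.6 to 38.4 in oligodendrocyte-like, 17.4 to 35.9 in astrocyte-like and 2.29 to 5.36 in neuron-like nuclei. The microglial range thus lay inside the oligodendrocyte range and below every endothelial library.

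**Figure D1:**
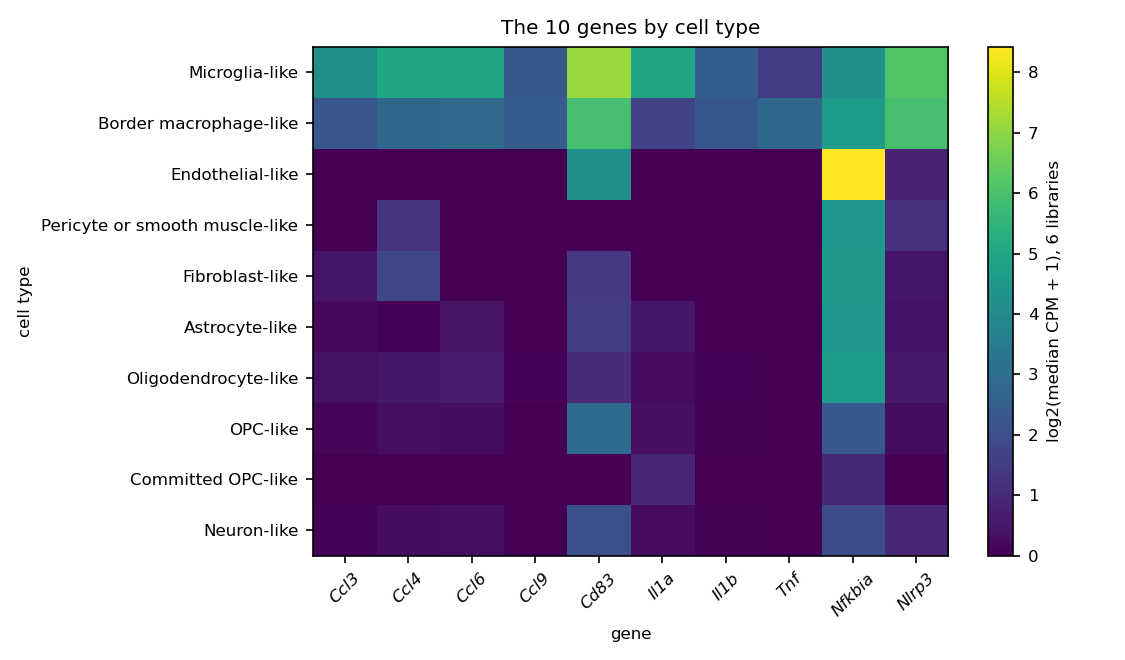
Heat map of the 10 genes (columns) over 10 cell types (lines), with colour for log2 of the median level of the 6 libraries in CPM plus 1; T cell-like nuclei are not drawn. Chemokines, Cd83, interleukin-1 genes and Nlrp3 are brightest in the microglia-like or border macrophage-like nuclei, and Nfkbia is brightest in endothelial-like nuclei, where its libraries were at 247 to 453.

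Within microglia-like nuclei, none of the 10 genes passed the test in any of the 3 comparisons of groups. Ccl3, which encodes a chemokine that draws myeloid cells, was at 7.21 and 20.4 CPM in 5xFAD (replicates 2 and 3), 11.6 and 14.1 in 5xFAD-M28L and 23.5 and 22.8 in 5xFAD-P522R, from 25 to 149 UMIs per library. Both P522R libraries were above all 4 others, and the widest spread was within the 5xFAD pair. Ccl4, another inflammatory chemokine, was at 23.7 and 41.7 in 5xFAD, 25.7 and 24.5 in 5xFAD-M28L and 38.6 and 37.0 in 5xFAD-P522R. The P522R libraries were above the M28L libraries and lay between the 5xFAD libraries. Ccl6, a myeloid chemokine of rodents, was at 20.2 and 39.5, then 27.9 and 37.3, then 24.7 and 31.2 in the same order, and the 3 groups overlapped. Ccl9, a ligand of CCR1, was low, at 3.36 to 7.15 CPM from 132 UMIs in all. Its P522R libraries, at 3.69 and 3.36, were the lowest.

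Cd83 was the best counted gene, with 4110 UMIs, and was at 88.0 and 151 CPM in 5xFAD, 122 and 133 in 5xFAD-M28L and 174 and 140 in 5xFAD-P522R. Its P522R libraries were above the M28L pair but not above 5xFAD replicate 3. Il1a, which encodes interleukin-1α, was at 49.6 and 26.1, then 42.7 and 28.9, then 32.1 and 28.9. In each group replicate 2 was the higher and all groups overlapped. Nlrp3 was at 75.0 and 104 in 5xFAD, 63.7 and 86.7 in 5xFAD-M28L and 63.6 and 63.5 in 5xFAD-P522R. Both P522R libraries were the lowest of the 6, although M28L replicate 2 was only just above them. Nfkbia stayed within 15.9 to 20.3 over all libraries. Il1b, at 1.52 to 8.08 CPM, and Tnf, at 1.12 to 3.75, were sparse, with 137 and 57 UMIs in all.

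**Figure D2:**
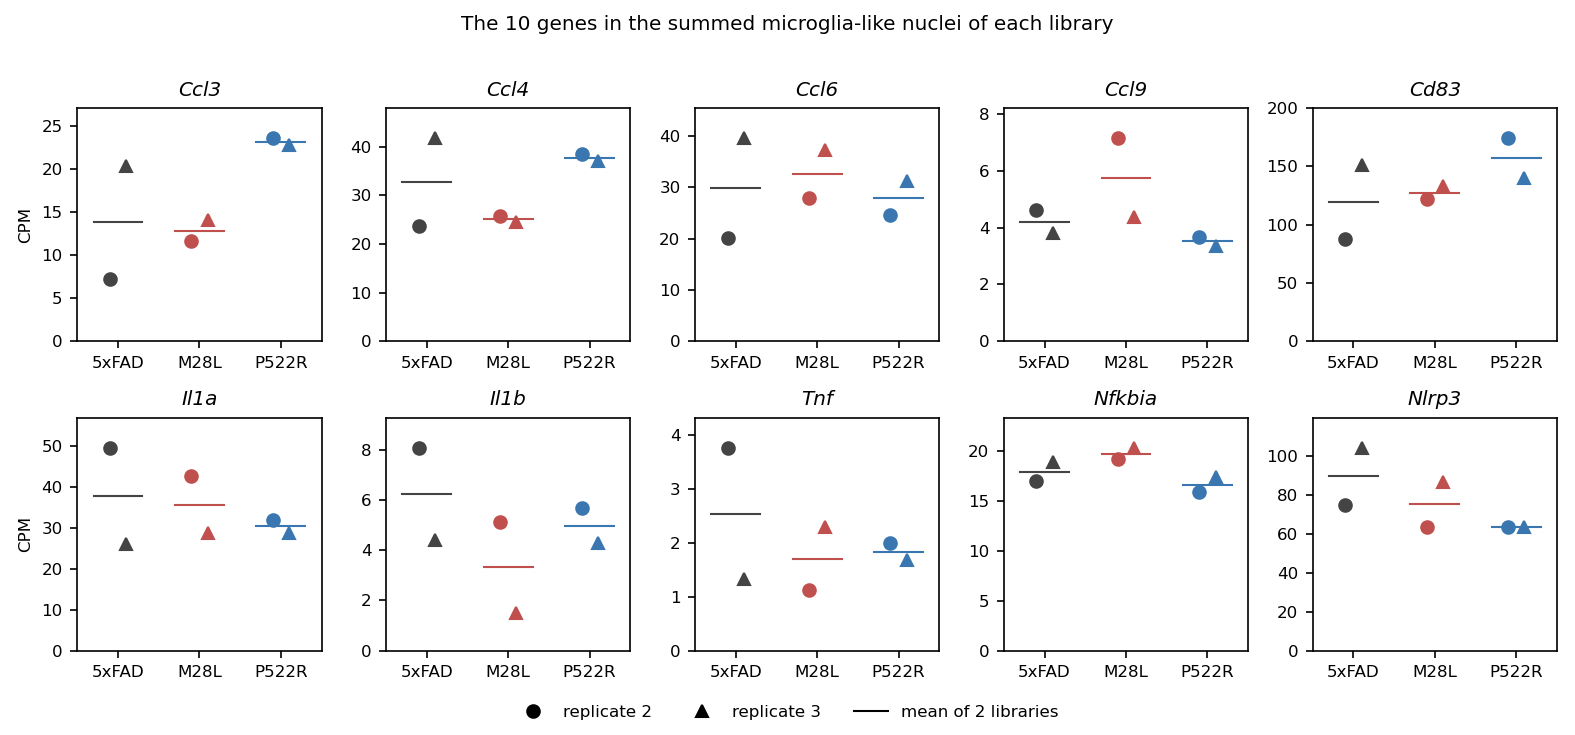
Level of each gene in microglia-like nuclei, in CPM, with 1 marker for each of the 2 libraries of a group (circle for replicate 2, triangle for replicate 3) and a line at their mean. Ccl3 is at 22.8 and 23.5 in the P522R libraries and at 7.21 to 20.4 in the other 4, while Nlrp3 is lowest in the P522R libraries.

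The test was edgeR's quasi-likelihood test on the summed counts of all 6 libraries, with Benjamini-Hochberg adjustment over 13645 genes. In 5xFAD-M28L against 5xFAD 0 of 10 genes were called, against 0.00733% of all genes tested. In 5xFAD-P522R against 5xFAD 0 of 10 were called, against 0%, and in 5xFAD-P522R against 5xFAD-M28L 0 of 10, against 0.00733%. At an unadjusted p under 0.05 the counts were 0, 1 and 1 of the 10 genes and 736, 1505 and 1412 of all genes, and DESeq2 also called 0, with 1 gene left without an adjusted p in each P522R comparison. With 2 libraries against 2, an exact permutation test cannot go below p = 0.33. Median log2 fold changes of the 10 genes were −0.09, −0.19 and −0.11, beside medians of 0.00 over all genes.

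The gene with the largest difference between the variants was Ccl3. It was at 23.2 ± 0.541 (SD, n = 2) in 5xFAD-P522R and 12.8 ± 1.73 in 5xFAD-M28L, a log2 fold change of 0.81 (SE 0.367, edgeR adjusted p = 0.502). Against 5xFAD (13.8 ± 9.30) the P522R difference was 0.65 (SE 0.359, adjusted p = 0.552 by edgeR). Leaving out 5xFAD replicate 2 gave 0.18, and leaving out 5xFAD replicate 3 gave 1.67, which edgeR called (adjusted p = 0.0183). Ccl4 was at 37.8 ± 1.12 in 5xFAD-P522R and 25.1 ± 0.828 in 5xFAD-M28L, a log2 fold change of 0.55 (SE 0.235, unadjusted p = 0.0436, edgeR adjusted p = 0.462). Nlrp3 was at 63.5 ± 0.0679 in 5xFAD-P522R and 89.6 ± 20.6 in 5xFAD, a log2 fold change of −0.52 (SE 0.191, unadjusted p = 0.0251, edgeR adjusted p = 0.40), −0.72 without 5xFAD replicate 2 and −0.25 without 5xFAD replicate 3. With no filter on low counts edgeR called 1 of the 10 genes in each P522R comparison, Nlrp3 against 5xFAD (adjusted p = 0.0193, with 3.73% of all genes called) and Ccl3 against 5xFAD-M28L (adjusted p = 0.0192, with 3.03%). Cd83 differed by 0.36 between 5xFAD-P522R and 5xFAD (SE 0.216, edgeR adjusted p = 0.583), by 0.04 without 5xFAD replicate 2, and by 0.82 without 5xFAD replicate 3 (adjusted p = 0.0257 by edgeR, when 3.32% of all genes were called). The remaining log2 fold changes lay between −0.85 (Il1b, 5xFAD-M28L against 5xFAD, SE 0.542) and 0.55 (Il1b, 5xFAD-P522R against 5xFAD-M28L). The −0.85 was −1.91 without 5xFAD-M28L replicate 2 and −0.20 without 5xFAD-M28L replicate 3.

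Groups without overlap were also counted, beside their share among all genes tested. In 5xFAD-M28L against 5xFAD 1 gene was higher in both libraries (Nfkbia; 15.2% of all genes) and 0 were lower (19.7%). In 5xFAD-P522R against 5xFAD 1 was higher (Ccl3; 22%) and 2 were lower (Ccl9 and Nlrp3; 20.3%). In 5xFAD-P522R against 5xFAD-M28L 3 were higher (Ccl3, Ccl4 and Cd83; 25.7%) and 3 lower (Ccl9, Nfkbia and Nlrp3; 17.8%). Transcripts of other cells moved with the P522R group: 10 abundant oligodendrocyte transcripts had a median log2 fold change of 0.83 against 5xFAD and 0.75 against 5xFAD-M28L, and 10 abundant astrocyte transcripts −0.56 and −0.58. The summed oligodendrocyte transcripts were at 740 and 942 CPM in 5xFAD, 887 and 970 in 5xFAD-M28L and 1255 and 2074 in 5xFAD-P522R. Their part in the differences of the 10 genes was not tested, apart from leaving out a cluster of 145 nuclei with oligodendrocyte genes. Without it the Ccl3 difference between the variants was 0.79. Of its nuclei 86 were in 5xFAD-P522R replicate 3, where they held 1180469 of the 6539643 microglia-like UMIs over which CPM was taken. In the other libraries the cluster held 41072 to 195200 UMIs, of 3466530 to 6827597.

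**Figure D3:**
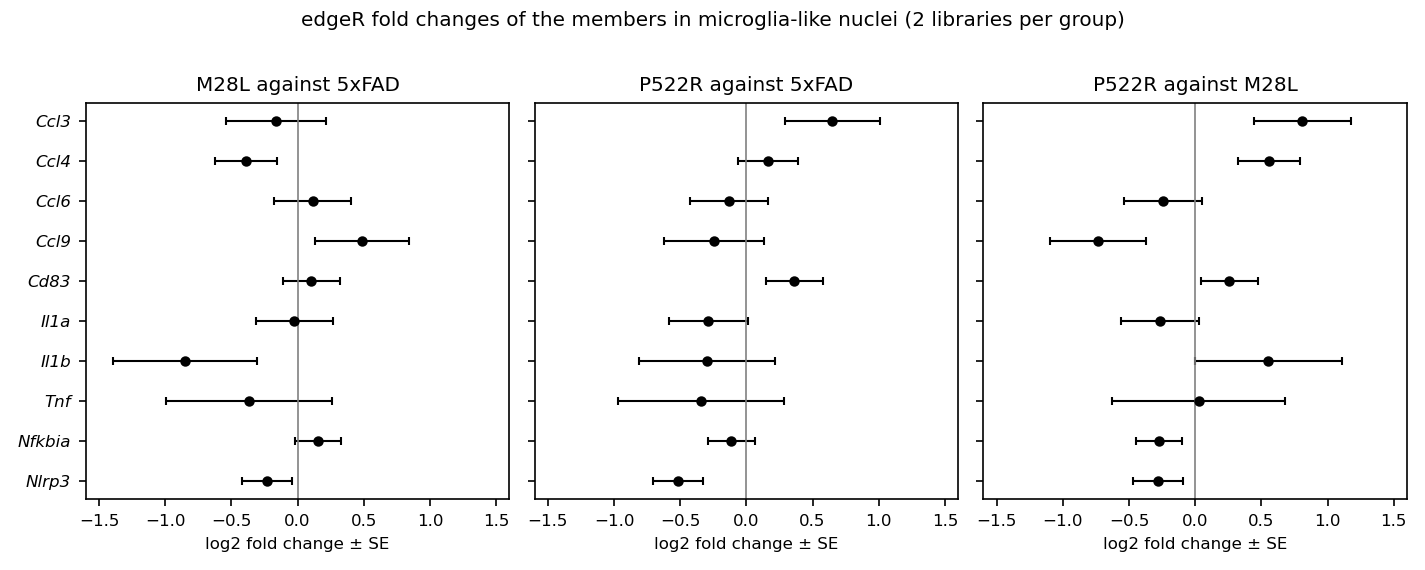
Log2 fold change of each gene in microglia-like nuclei in the 3 comparisons, with bars of 1 standard error from edgeR. All 30 values have an adjusted p above 0.05, and Ccl3 and Ccl4 have their largest values in 5xFAD-P522R against 5xFAD-M28L, 0.81 and 0.55.

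For Ccl3, Ccl4, Ccl6 and Cd83 the larger contrasts lay between states of microglia. The microglia-like nuclei were divided again without the 10 genes or other pathway genes among the genes used, which gave 6 clusters. Cluster 1 (3002 nuclei) was homeostatic-like, cluster 2 (2311) was not named and was led by F630206G17Rik and Minar1, cluster 3 (1431) was disease-associated-like and cluster 4 (609) interferon-responsive-like; the other two held 145 and 38 nuclei. A cluster set against another is a description of the same nuclei, with no test. Ccl3 was at 0.625 to 3.51 CPM in cluster 1 (median of 6 libraries 2.70), 16.8 to 30.6 in cluster 2 (25.1), 15 to 42.3 in cluster 3 (32.8) and 3.84 to 17.4 in cluster 4 (11.2). Every library of clusters 2, 3 and 4 was above every library of cluster 1. Cluster 1 held only 27 Ccl3 UMIs, 1 of them in each P522R library. Over pooled counts, cluster 3 had 13.4 times the Ccl3 level of cluster 1 and cluster 2 had 9.59 times.

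Ccl4 followed the same order, with medians of 8.94, 44.8, 61.8 and 21.5 in clusters 1 to 4. Cd83 had medians of 62.1, 185, 223 and 121, and its lowest library in cluster 2 (155) was above its highest in cluster 1 (84.5). In cluster 3 Cd83 was above cluster 2 in 6 of 6 libraries. Ccl6 had medians of 12.6, 49.2, 38.2 and 19.6, so it was the chemokine whose median was highest in the unnamed cluster 2. It was above cluster 3 there in only 4 of 6 libraries, at 1.07 times the cluster 3 level in pooled counts. In pooled counts cluster 3 exceeded cluster 1 by 7.23 times for Ccl4, 3.82 times for Ccl6 and 3.50 times for Cd83, each in 6 of 6 libraries. These 4 genes were also the ones higher in cluster 3 in 6 of 6 libraries when nuclei were thinned or when the genes were kept in the clustering.

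The interleukin-1 and NF-kB control genes did not share this order. Il1a had medians of 37.9, 27.1, 21.2 and 35.0 in clusters 1 to 4, and cluster 3 was at 0.527 of cluster 1 in pooled counts, lower in 6 of 6 libraries. Nfkbia had medians of 22.7, 18.9, 13.6 and 26.4, and cluster 3 was at 0.619 of cluster 1, also lower in 6 of 6. Ccl9 was at 0.278 of cluster 1 and lower in 5 of 6 libraries. This rests on few counts, with 132 UMIs in all microglia-like nuclei, a pooled 1.62 CPM in cluster 3 and at least 1 library there at 0. In these counts Ccl9 did not follow the other chemokine genes of the chromosome 11 group. Nlrp3 had medians of 68.1, 82.8, 83.6 and 81.4, and clusters 3 and 1 had overlapping ranges of 56.7 to 98.2 and 49.4 to 109. Il1b and Tnf were at 0 in at least 1 library in most clusters, and no order was read from them.

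**Figure D4:**
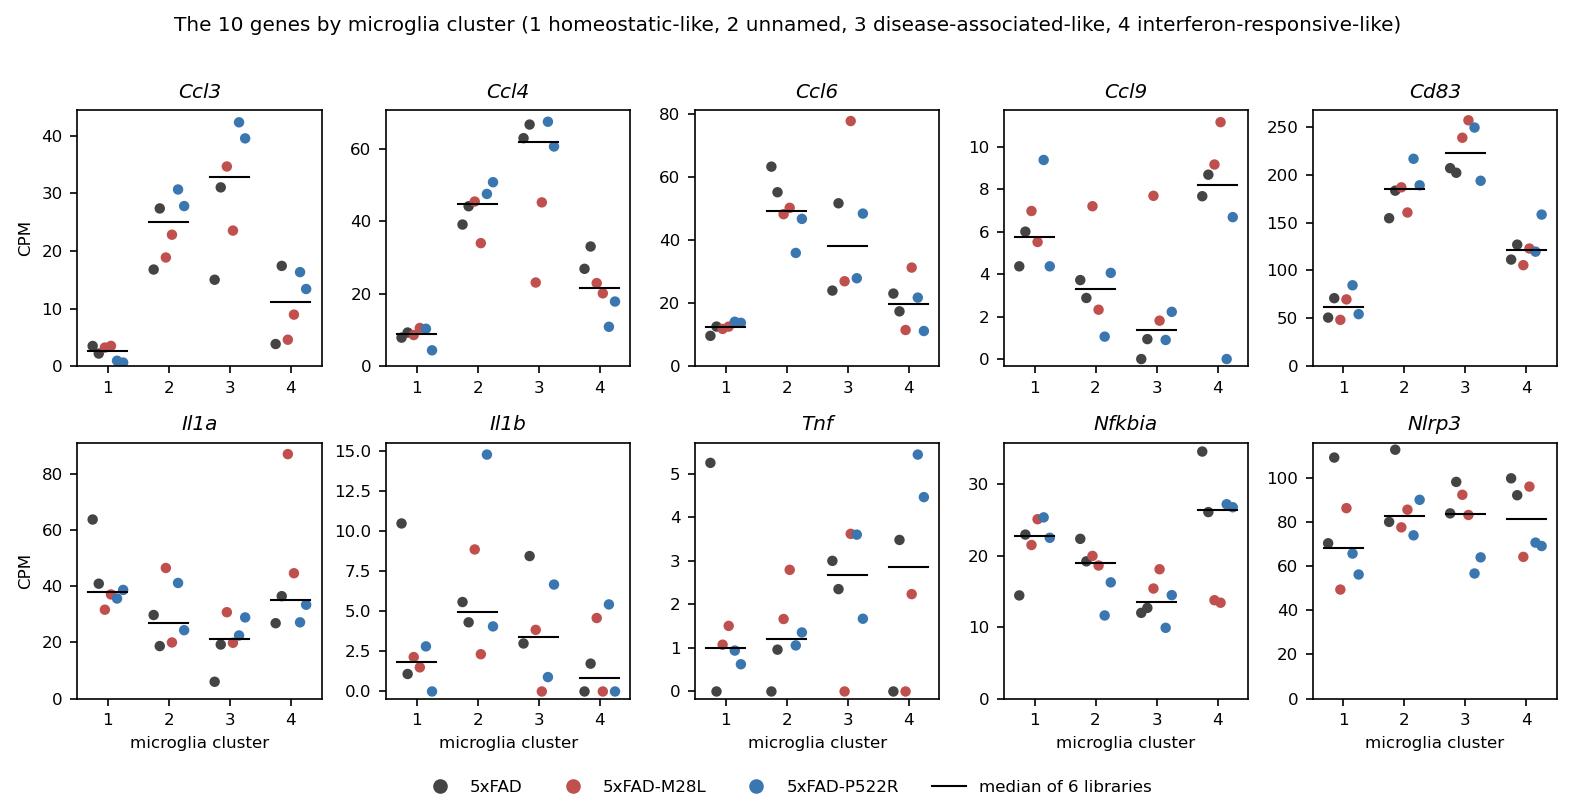
Level of each gene in microglia clusters 1 to 4, in CPM, with 1 point per library and a bar at the median of the 6 libraries. Ccl3, Ccl4, Ccl6 and Cd83 are higher in clusters 2 and 3 than in cluster 1 in every library, while Il1a and Nfkbia are lower in cluster 3 than in cluster 1.

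The share of each cluster differed between libraries, so a level summed over all microglia-like nuclei also carries their makeup. Cluster 3 held 8.76% and 29.0% of the microglia-like nuclei of 5xFAD, 5.08% and 8.71% of 5xFAD-M28L and 31.3% and 29.2% of 5xFAD-P522R. Cluster 1 held 68.4% and 28.9%, 43.2% and 41.5%, and 32% and 29.6%. The libraries with the lowest Ccl3 (5xFAD replicate 2 and both M28L libraries) were those with the smallest share of cluster 3. Within clusters, edgeR called 0 of 84 tests of these genes, of which 10 had an unadjusted p under 0.05, and the smallest adjusted p was 0.315. Among all genes, 482 to 1013 of the 7162 to 11298 tested in a cluster had an unadjusted p under 0.05. All genes were called at 0.00885%, 0.0266% and 0.0354% in cluster 1 (5xFAD-M28L against 5xFAD, 5xFAD-P522R against 5xFAD and 5xFAD-P522R against 5xFAD-M28L), 0.182%, 0.0364% and 0.209% in cluster 2, 0.658%, 0.11% and 0.46% in cluster 3 and 0.335%, 0.112% and 0.475% in cluster 4. That smallest value was Ccl4 in cluster 3, at 63.0 and 66.7 CPM in 5xFAD, 23.1 and 45.2 in 5xFAD-M28L and 67.5 and 60.7 in 5xFAD-P522R. The M28L libraries were below the other 4, with a log2 fold change of −0.79 against 5xFAD (SE 0.310, edgeR adjusted p = 0.315) and a difference of 0.72 between 5xFAD-P522R and 5xFAD-M28L (SE 0.302, edgeR adjusted p = 0.418). Those 2 M28L libraries had 56 and 120 nuclei in the cluster. Nlrp3 in cluster 3 was at 60.4 ± 5.16 (SD, n = 2) in 5xFAD-P522R and 91.1 ± 10.1 in 5xFAD, a log2 fold change of −0.66 (SE 0.202, edgeR adjusted p = 0.469).

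The chemokines and Cd83 were also found together in single nuclei. Among 7278 microglia-like nuclei thinned to 2000 UMIs, with 258 shallower ones left out, Ccl4 was detected in 49 of 225 nuclei with Ccl3 (21.8%, 95% Clopper-Pearson interval 16.6% to 27.7%) and in 4.64% of nuclei without it. Ccl6 was detected in 15.1% of Ccl3-positive and 5.29% of Ccl3-negative nuclei, and Cd83 in 31.6% and 18.9%. Each of these shares was higher with Ccl3 in 6 of 6 libraries. The interval covers counting error only. Ccl4 was more often found with Ccl3 in clusters 2 and 3 taken alone, in 25.7% against 6.17% of nuclei in cluster 2 and 20% against 8.76% in cluster 3. The shares were 20% against 1.58% in cluster 1 and 13.3% against 4.04% in cluster 4. Even before thinning only 23 nuclei of cluster 1 and 21 of cluster 4 had Ccl3, so the shares in these clusters rest on few nuclei. Il1a-positive nuclei had Cd83 in 20.1% of cases and Il1a-negative nuclei in 19.3%. Of the thinned nuclei 4065 had none of the 10 genes, 2414 had 1, 647 had 2, 132 had 3 and 20 had 4 or more.

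The 72 nuclei with Il1b, which encodes the interleukin-1β precursor, were few and uneven. Of its 137 UMIs 55 were in 6 nuclei with at least 5 each. Without thinning, Il1a was found in 31.9% of Il1b-positive and 10.2% of other nuclei, Cd83 in 45.8% and 29.8%, and a UMI of Fos, Jun or Egr1 in 20.8% and 6.42%. None of the 72 held a UMI of the neutrophil genes S100a8, S100a9, Retnlg, Cxcr2 or Mmp9, and 8 of the 7464 others did. These genes were too rare in all nuclei for their absence from 72 to tell the 2 sets apart. With the whole list of 9 neutrophil and monocyte markers, which includes Csf3r, the shares with a UMI were 95.8% and 93.2%. The nucleus with the most of the 10 genes, from 5xFAD replicate 2 and cluster 1, held 8 of them in 5706 UMIs, among them 35 of Il1a, 33 of Cd83, 22 of Il1b, 17 of Nlrp3 and 7 of Tnf. That nucleus alone gave 22 of the 28 Il1b UMIs of its library, whose level of 8.08 CPM was the highest of the 6. Tnf, the TNF ligand, was found in 48 nuclei, of which 33.3% had Nfkbia and 27.1% had Ccl4, against 6.42% and 8.05% of nuclei without Tnf. These shares were also taken without thinning, and nuclei with Tnf were deeper, with a median of 4643 UMIs against 3582.

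Likeness between genes was taken over 26 sums, each of 1 microglia cluster in 1 library with at least 20 nuclei. These sums share libraries, depth and clusters, so the correlations of log2 levels are descriptions. Pearson's r was 0.880 for Ccl4 and Cd83, 0.851 for Ccl3 and Cd83, 0.832 for Ccl3 and Ccl4 and 0.768 for Ccl6 and Cd83. It was 0.653 for Ccl9 and Il1a and −0.497 for both Ccl4 and Il1a and Ccl3 and Ccl9. Unnamed gene models and sex-linked genes were left out of the ranking. Of the other genes, the 3 most like Ccl4 were Olfr110 (0.909), Egln3 (0.908) and Ptchd1 (0.897). Those most like Cd83 were Cacna1a (0.948), Arhgap24 (0.946) and Cd9 (0.945). The closest to Ccl6 were Mthfs (0.824), Klhl7 (0.819) and Zbtb25 (0.814), to Il1a Bin2 (0.778), Snph (0.774) and Liph (0.768), and to Nlrp3 Osbpl9 (0.805), Rcbtb2 (0.773) and Dock11 (0.771).

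Because each library held nuclei of both sexes, microglia-like nuclei were also summed by sex, as Xist-positive (Xist and no UMI of 4 Y-linked genes) or Y-positive (the reverse). Xist-positive nuclei made up 44.2% and 68.8% of the sexed nuclei in 5xFAD, 48.0% and 62.5% in 5xFAD-M28L and 75.1% and 72.9% in 5xFAD-P522R. Ccl3 in Xist-positive nuclei was at 2.69 and 13.2 CPM in 5xFAD, 11.8 and 11.0 in 5xFAD-M28L and 26.1 and 27.4 in 5xFAD-P522R. In Y-positive nuclei it was at 12.1 and 24.1, then 10.9 and 16.4, then 11.0 and 9.44. The P522R libraries were thus the highest among Xist-positive nuclei, whereas among Y-positive nuclei they overlapped with the M28L libraries and were below both 5xFAD libraries. The counts were small, with 3 to 84 UMIs per sum. Ccl4 had the same arrangement, at 9.88 and 34.8, 32.1 and 23.2, and 43.5 and 46.3 in Xist-positive nuclei and 38.3 and 49.4, 17.2 and 30.2, and 27.5 and 25.2 in Y-positive nuclei. The makeup of these nuclei differed too. Cluster 3 held 0.517% and 31.4% of Xist-positive nuclei in 5xFAD replicates 2 and 3, 7.42% and 13.5% in 5xFAD-M28L and 38.1% and 36.1% in 5xFAD-P522R. Of Y-positive nuclei it held 13.9% and 25.7%, 4.26% and 3.54%, and 16.5% and 21.8%, in the same order, and its part in these differences was not tested.

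The difference between Xist-positive and Y-positive nuclei was tested as an interaction in edgeR with the library as a term. The nuclei of each sex in a library came from different mice, so sex cannot be told apart from the individual mice pooled. Of 24 tests 0 were called and 6 had an unadjusted p under 0.05, 2 of 8 in each comparison, while all genes were called at 0.865%, 0% and 0% in 5xFAD-M28L against 5xFAD, 5xFAD-P522R against 5xFAD and 5xFAD-P522R against 5xFAD-M28L. Of all 11680 genes tested, 1554, 1060 and 701 had an unadjusted p under 0.05 in these comparisons. For Ccl3, the P522R-against-5xFAD difference in Y-positive minus that in Xist-positive nuclei was −2.50 on the log2 scale (SE 0.503, unadjusted p = 0.000185, edgeR adjusted p = 0.247). Without 5xFAD replicate 2, whose Xist-positive nuclei stood apart, it was −2.24 (edgeR adjusted p = 0.186). Against 5xFAD-M28L it was −1.66 (SE 0.510, edgeR adjusted p = 0.742), a comparison without 5xFAD libraries but with the same P522R libraries. This was −1.94 without 5xFAD-M28L replicate 2 and −1.33 without 5xFAD-M28L replicate 3. For Ccl4 it was −1.68 against 5xFAD (SE 0.457, edgeR adjusted p = 0.341) and −1.25 without 5xFAD replicate 2. Against 5xFAD-M28L the Ccl4 difference was −0.56 (SE 0.475, edgeR adjusted p = 0.919), and 0.08 without 5xFAD-M28L replicate 3. Without 5xFAD replicate 3 instead, when the lone 5xFAD library was the one that stood apart, 6 tests were called, among them Ccl3 in 5xFAD-P522R against 5xFAD (−3.55, edgeR adjusted p = 0.00711), beside 7.97% of all genes in 5xFAD-M28L against 5xFAD and 4.91% in 5xFAD-P522R against 5xFAD.

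**Figure D5:**
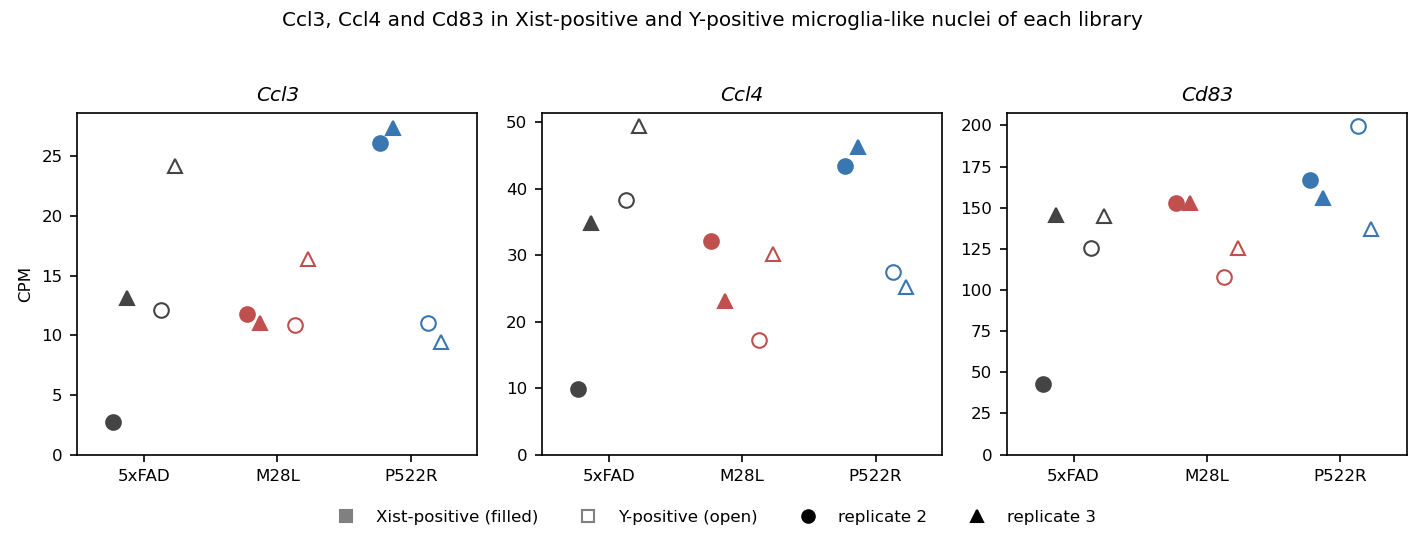
Levels in CPM of microglia-like nuclei, with filled markers for Xist-positive and open markers for Y-positive nuclei, circles for replicate 2 and triangles for replicate 3. Ccl3 is at 26.1 and 27.4 in the P522R libraries among Xist-positive nuclei and at 11.0 and 9.44 among Y-positive nuclei.

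Border macrophage-like nuclei, which carry Mrc1, F13a1 and Cd163, had a different mixture of these genes, from few counts. Ccl4 was at 0 to 17.3 CPM (12 UMIs in all), Ccl6 at 0 to 10.6 (9 UMIs) and Il1a at 0 to 5.30 (4 UMIs), and each was below the microglia-like level of the same library in 6 of 6 libraries. Cd83, at 13 to 95.5, was also lower in 6 of 6, and at 0.402 of the microglial level in pooled counts. Tnf was the one gene higher in 6 of 6 libraries, at 3.45 to 8.97 CPM against 1.12 to 3.75, a pooled ratio of 3.29 that rests on 10 UMIs. Nlrp3 was at 66.9 and 86.6 in 5xFAD, 21.3 and 53.8 in 5xFAD-M28L and 69.0 and 24.2 in 5xFAD-P522R, and was below the microglia-like level in 5 of 6. Nfkbia, at 13 to 49.4, was higher in 4 of 6.

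Only Cd83, Nfkbia and Nlrp3 had enough counts to be tested between groups in border macrophage-like nuclei. edgeR called 0 of the 3 in each comparison, as it did of all 5450 genes (0% in all 3), and 0 of the 3 but 142, 186 and 203 of all genes had an unadjusted p under 0.05; DESeq2 called 0. For Nlrp3 the log2 fold change of 5xFAD-M28L against 5xFAD was −1.06 (SE 0.586, edgeR adjusted p = 0.999). The biological coefficient of variation was 0.271 there and 0.123 in microglia-like nuclei. In the interaction of cell type and group 0 of 30 tests were called, and all genes at 0.0078%, 0.0234% and 0.039%. In the other cell types 45 tests, mainly of Nfkbia and Cd83, gave 0 calls in edgeR, beside the following shares of all genes. These were 0.132% in committed precursor-like nuclei in 5xFAD-M28L against 5xFAD, 0.0288% in astrocyte-like and 0.0424% in neuron-like nuclei in 5xFAD-P522R against 5xFAD, and 0.0247% in endothelial-like nuclei in both comparisons with 5xFAD. In pericyte- or smooth muscle-like nuclei they were 0.0162%, 0.0975% and 0.146% in the 3 comparisons, and they were 0% elsewhere. In committed precursor-like and in pericyte- or smooth muscle-like nuclei none of the genes described here had enough counts to be tested. Of the 45 tests 3 had an unadjusted p under 0.05, the smallest adjusted p was 0.575, and DESeq2 called 0, with 92 of its adjusted p-values missing. Among all genes, 339 to 1912 of the 8093 to 16501 tested in one of the types with any of the 45 tests had an unadjusted p under 0.05.

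The rest of the pathway in microglia-like nuclei was read from lists of genes by role, and edgeR called no gene of any of these lists in any comparison. Among ligands 16 of 31 listed genes had enough counts to be tested, with Tgfb1 (161 CPM on average) and Il15 (152) the highest. Csf1, the growth factor for microglia, was at 79.0 and 142 in 5xFAD, 86.9 and 119 in 5xFAD-M28L and 153 and 182 in 5xFAD-P522R, with a log2 fold change of 0.67 between the variants (SE 0.254, edgeR adjusted p = 0.410). Il6 was at 6.27 to 13.8 CPM and its lowest libraries were the P522R pair. Of the receptors 21 of 25 were tested, with medians of log2 fold changes of 0.15 in 5xFAD-M28L against 5xFAD, −0.13 in 5xFAD-P522R against 5xFAD and −0.21 in 5xFAD-P522R against 5xFAD-M28L. Tlr7, the endosomal receptor for single-stranded RNA, was at 281 and 291 in 5xFAD, 319 and 326 in 5xFAD-M28L and 242 and 241 in 5xFAD-P522R. Its groups did not overlap, and the log2 fold change between the variants was −0.45 (SE 0.0843, unadjusted p = 0.000519, edgeR adjusted p = 0.164). Tlr7 was named for the smallest p of its list in that direction. Of all genes tested, 17.8% were likewise lower without overlap in 5xFAD-P522R than in 5xFAD-M28L. Tlr3, the receptor for double-stranded RNA, was lowest in the P522R libraries too (−0.62 against 5xFAD, edgeR adjusted p = 0.271). Il1rap, the shared chain of the interleukin-1 receptor, was highest there (0.63 against 5xFAD, edgeR adjusted p = 0.361). In 5xFAD-P522R against 5xFAD 20.3% of all genes were lower and 22% higher without overlap.

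Of the signal transducers 24 of 25 were tested, with Prkcb, a protein kinase C that acts downstream of phospholipase C-γ2, the highest at 770 CPM. Ikbkg, the regulatory subunit of the IκB kinase, had a log2 fold change of −0.51 in 5xFAD-P522R against 5xFAD (edgeR adjusted p = 0.388). All 15 NF-kB subunits and inhibitors were tested; Nfkb1 was the highest, at 478 on average, and Rel, the c-Rel subunit, was at 137 and 113 in 5xFAD, 126 and 106 in 5xFAD-M28L and 95.6 and 96.2 in 5xFAD-P522R (−0.38 against 5xFAD, edgeR adjusted p = 0.368). Of the inflammasome genes 12 of 14 were tested, led by Nek7 (606) and Aim2 (284), with medians of 0.01, −0.13 and −0.07 in the 3 comparisons. Of 18 other NF-kB targets 14 were tested, with Plek (424) and Cd86 (357) the highest; Ier3 differed by −1.23 between the variants (edgeR adjusted p = 0.406) from levels of at most 2.85 CPM. Immediate early genes, which cells switch on within minutes of a stimulus or stress, had 14 of 20 tested and medians of 0.05, −0.22 and −0.31. Atf3, a stress-induced transcription factor, was at 11.8 and 19.6 in 5xFAD, 8.93 and 9.31 in 5xFAD-M28L and 21.6 and 22.3 in 5xFAD-P522R, and differed by 1.23 between the variants (SE 0.252, edgeR adjusted p = 0.185). The M28L libraries were the lowest and the P522R libraries the highest. Atf3 was named for the smallest p of its list in that direction. Of all genes tested, 25.7% were likewise higher without overlap in 5xFAD-P522R than in 5xFAD-M28L.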

How the data were processed

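Nuclei were captured with the 10x Genomics 3′ v3 kit. The authors deposited raw UMI counts per gene and barcode for each of the 6 libraries. They were made with Cell Ranger 6.1.2 on mm10, per the submitters' processing notes; per the file headers 1 library, 5xFAD-P522R replicate 3, was made with version 5.0.1, which cannot be told apart from that library. Whether intronic reads were counted, and whether counting used strand, is not given in the sources used here. Total counts per library were 53326947 to 72288942.

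A barcode was kept (62651 were) if it had 500 UMIs or more, 300 genes or more and no more than 5% of UMIs from mitochondrial genes, and 2566 doublets called by Scrublet were removed (3.67% to 4.68% per library). Nuclei were clustered in scanpy 1.11.5 (2000 variable genes, 30 components, Leiden resolution 1 with leidenalg 0.10.2) and named from marker lists; 48326 nuclei were named. Counts were summed per library and cell type and tested with edgeR 4.0.16 in R 4.3.3 (TMM, a minimum count of 10, quasi-likelihood, 2-sided, 3 groups in 1 fit, adjusted p under 0.05), wherever every library had at least 20 nuclei. The code was tested on simulated data. DESeq2 1.42.0, other scalings, filters, clusterings, nuclei of 1 sex and each library left out were alternatives. Intervals cover counting error only.

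The 10 genes and the pathway lists were chosen with earlier results of these data known. Named from each list were the 2 genes with the highest level. The gene with the smallest p in each direction was also named per comparison, and some of these genes are printed. For genes with a mean of at least 20 CPM, the 3 genes most like them were named, leaving out unnamed gene models and sex-linked genes. Promoter sequences are RefSeq's for GRCm38.p6, and no protein sequence was used here.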

Additional observations from a re-analysis of the deposited data

How the results depend on the processing

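Of 337 fold changes of the 10 genes in microglia-like nuclei under other settings 316 kept their direction, 21 turned and 2 became calls; for 180 with 1 library left out these were 160, 20 and 2. The replicate numbers are shared by the groups but not known to mark shared mice: deviations of replicate 2 correlated at 0.295, 0.195 and 0.172 between groups, with 2 pairs only. With the replicate block 0 of the 10 genes were called in any of the 3 comparisons, and 1 (Nfkbia) was called in oligodendrocyte-like nuclei in 5xFAD-M28L against 5xFAD, where 6.41% of all genes were. With no filter on low counts 1 gene was called in each P522R comparison, Nlrp3 against 5xFAD (−0.51, edgeR adjusted p = 0.0193, with 3.73% of all genes) and Ccl3 against 5xFAD-M28L (0.81, edgeR adjusted p = 0.0192, with 3.03%); the filter changes the genes that share the estimate of spread, and the cause was not tested. Without thinning, Ccl4 was found in 29.7% of Ccl3-positive nuclei.

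Directions turned as follows, in log2. In Xist-positive nuclei only: 5xFAD-M28L against 5xFAD, Ccl3 0.24, Ccl4 0.11 and Il1b 0.34; 5xFAD-P522R against 5xFAD, Il1b 0.37 and Nfkbia 0.51; between the variants, Nfkbia 0.38. In Y-positive nuclei only: 5xFAD-M28L against 5xFAD, Cd83 −0.20, Il1a 0.041 and Nfkbia −0.070; 5xFAD-P522R against 5xFAD, Ccl3 −0.86 and Ccl4 −0.75; between the variants, Ccl3 −0.45 and Nlrp3 0.26. With cell types at resolution 2, which left a cluster of 1954 nuclei best matching microglia unnamed: 5xFAD-M28L against 5xFAD, Ccl6 −0.10, Cd83 −0.073, Il1a 0.20 and Il1b 0.51; 5xFAD-P522R against 5xFAD, Il1b 0.91 and Nfkbia 0.13; between the variants, Ccl6 0.014. Without the cluster of oligodendrocyte genes, chosen after seeing the data, Tnf between the variants was −0.047. The cause was not tested.

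With 1 library left out, a lone library being assumed to vary like the other groups, calls ranged from 0 to 2 in 5xFAD-P522R against 5xFAD (Ccl3 and Cd83, without 5xFAD replicate 3), from 0 to 6 in the interaction with sex, an alternative also chosen after seeing the data, and were 0 elsewhere. Fold changes that turned ranged in 5xFAD-M28L against 5xFAD from −0.63 to 0.86 for Ccl3, −0.70 to 0.11 for Ccl4, −0.24 to 0.72 for Ccl6, −0.21 to 0.56 for Cd83, −0.46 to 0.48 for Il1a, −1.08 to 0.42 for Tnf and −0.49 to 0.031 for Nlrp3. In 5xFAD-P522R against 5xFAD they ranged from −0.15 to 0.67 for Ccl4, −0.48 to 0.48 for Ccl6, −0.72 to 0.21 for Il1a, −0.74 to 0.14 for Il1b and −1.05 to 0.44 for Tnf. Between the variants they ranged from −0.51 to 0.02 for Il1a, −0.10 to 1.61 for Il1b and −0.38 to 0.66 for Tnf. Depth limits Il1b, Tnf and Ccl9 most, with 8 to 30 Il1b UMIs per library.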

Other observations

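A few values belong to no comparison above. T cell-like nuclei, 57 in all, held 7 Tnf UMIs (2 in 5xFAD replicate 3, 1 in 5xFAD-M28L replicate 2, 4 in 5xFAD-P522R replicate 2 and 0 in the other 3 libraries), against 57 Tnf UMIs in 7536 microglia-like nuclei; there were too few nuclei for a test. Csf3r, the receptor for the neutrophil growth factor, was at 1017 CPM in microglia-like nuclei, while S100a8, S100a9, Ly6c2, Retnlg and Mmp9 were at 0 in the microglia-like sums of all 6 libraries.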
